A study of Mus musculus with 18 samples.

Results

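The interferon-linked members of the PARP family were examined in mouse eosinophils. They were 9 genes chosen by symbol from the 54446 genes of the normalized table: *Parp1*, *Parp8*, *Parp9*, *Parp10*, *Parp11*, *Parp12*, *Parp14*, *Dtx3l* and *Zc3hav1*. Each symbol matched 1 row. PARP enzymes use NAD to attach ADP-ribose to proteins. PARP1 builds long chains of it at DNA breaks, whereas most other members attach single units, and several of those are known interferon-stimulated genes that limit viruses. PARP9 works in a complex with the ubiquitin ligase DTX3L, ZC3HAV1 is an antiviral protein of the family that binds foreign RNA without enzyme activity, and PARP14 is known as a co-activator of STAT6, the transcription factor activated by IL-4.

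CEL-Seq2, a method that reads transcripts near their 3' ends, was applied to 18 libraries. All held eosinophils from the peritoneal cavity of C57BL/6 mice carrying an *Il5* transgene (*Il5*Tg), depleted of Thy1.2+ and B220+ cells, cultured for about 18 h with apoptotic cells (ACs) and purified again with anti-Siglec-F beads. As ACs served wild-type thymocytes in which dexamethasone had induced apoptosis. The Type 1 experiment gave 12 libraries, 3 in each of ACs, *E. coli* + ACs, IFN-γ + ACs and the combination of IFN-γ followed by *E. coli* with ACs, and the IL-4 experiment gave 6, 3 each with ACs and IL-4 + ACs. Eosinophils without ACs are not analysed here. Labels do not say which mice gave which library, so the p-values measure the spread between these libraries.

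Between 779421 and 7782072 reads were counted on genes per library. Shallow were both replicate 3 libraries with and without IL-4, with 849705 reads in IL-4 + ACs and 779421 in ACs, where 1 read stands for a normalized count of 5.14 and 5.36. Of the 8 eosinophil markers, *Siglecf* had normalized counts of 1514 to 3367 and *Ccr3* of 2623 to 4934 across the libraries, while *Epx*, eosinophil peroxidase, and *Prg3* ranged from 0.00 to 25.7 and from 0.00 to 26.8. All 10 markers of peritoneal macrophages were also present. In the Type 1 experiment their summed normalized count was 17918 to 23012 with ACs alone. It was 30521 to 40073 in IFN-γ + ACs, above ACs, and below ACs in *E. coli* + ACs, at 10117 to 12453, and in IFN-γ + *E. coli* + ACs, at 12614 to 13735. The summed eosinophil markers were 16305 to 17728 with ACs alone, 9977 to 11221 in IFN-γ + ACs, 17522 to 18785 in *E. coli* + ACs and 14425 to 17097 in IFN-γ + *E. coli* + ACs. The 5 B cell markers summed to 901 to 1040 with ACs alone, 307 to 317 in *E. coli* + ACs, 97.6 to 179 in IFN-γ + ACs and 151 to 172 in IFN-γ + *E. coli* + ACs. The 12 thymocyte and T cell markers summed to 101 to 159, 131 to 180.3, 45.1 to 109 and 40.0 to 115 in the same order, and the 5 mast cell markers to 5.64 to 20.3, 20.2 to 36.0, 26.7 to 66.5 and 35.6 to 63.5. Neutrophil and dendritic cell markers summed to 7.34 to 45.2 in these 12 libraries. In these bulk samples fewer cells of a type and less RNA per cell cannot be told apart, and the part of these shifts in the results below was not tested.

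*Parp9*, *Dtx3l* and *Parp14* lie close together in the genome (GRCm38, GENCODE M21). *Parp9* (ENSMUSG00000022906.15, chromosome 16, 35938470 to 35972605, plus strand) and *Dtx3l* (ENSMUSG00000049502.17, 35926511 to 35939151, minus strand) start head to head and overlap by 682 bases, of which 458 are exonic in both genes. *Parp14* (ENSMUSG00000034422.14, 35832874 to 35871544, minus strand) lies 54966 bases from *Dtx3l* with 0 protein-coding genes between them. *Parp12* (ENSMUSG00000038507.6, 39086410 to 39118349, minus strand) and *Zc3hav1* (ENSMUSG00000029826.14, 38305286 to 38354603, minus strand) lie on chromosome 6, 731806 bases apart with 8 protein-coding genes between them. *Parp11* (ENSMUSG00000037997.12, 127446840 to 127494261, plus strand) lies farther off on the same chromosome. *Parp10* (ENSMUSG00000063268.12) is on chromosome 15 from 76231174 to 76243441, minus strand, *Parp1* (ENSMUSG00000026496.11) on chromosome 1 from 180568924 to 180601254, plus strand, and *Parp8* (ENSMUSG00000021725.9) on chromosome 13 from 116854820 to 117025537, minus strand.

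RefSeq promoter windows of GRCm38.p6, 250 bases before to 50 after a start, were matched for 6 members in 7 windows. They were searched on both strands for TTCNNNGAA, the GAS element that dimers activated by IFN-γ bind, and for GAAANNGAA, a core of the interferon-stimulated response element. Over all 32851 windows, 8.30% held the former and 8.56% the latter. Among the 6 members with a window, *Parp11* alone held a match, 1 to each motif, with 3 bases shared between them. Both lay in the first of its 2 windows, and the second (chr6:127453377-127453676) held none. No window was matched for *Parp9*, *Parp10* or *Parp14*, so the promoters of these members were not searched. Shown are the 100 bases before the start of *Parp11* (chr6:127446740-127446839, plus strand), with both matches as 1 run of capitals, beside the 100 before *Parp12* (chr6:39118350-39118449, minus strand) and *Zc3hav1* (chr6:38354604-38354703, minus strand), which held none. The fourth is a stretch of 71 bases (chr16:35939207-35939277, minus strand) that lies upstream of *Dtx3l* and in the first intron of *Parp9*.
Parp11: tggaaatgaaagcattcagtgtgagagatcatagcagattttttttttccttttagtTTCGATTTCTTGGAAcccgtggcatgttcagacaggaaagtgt
Parp12: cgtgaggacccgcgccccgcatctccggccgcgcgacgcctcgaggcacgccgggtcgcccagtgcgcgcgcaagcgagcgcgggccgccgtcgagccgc
Zc3hav1: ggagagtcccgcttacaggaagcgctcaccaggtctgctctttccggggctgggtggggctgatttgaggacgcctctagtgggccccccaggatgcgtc
Dtx3l: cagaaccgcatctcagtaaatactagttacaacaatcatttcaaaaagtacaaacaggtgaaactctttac
In the 250 bases before the start, GC content was 40.4% for this *Parp11* window and 73.6% for *Parp12*, against a median of 52.4% over all windows. CpG pairs numbered 5 and 41 in these 2 windows, against a median of 6. The second *Parp11* window had a GC content of 57.6% and 20 CpG pairs. A match is a run of letters only, and no binding was measured here.

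Changes were tested with limma on log2(normalized count + 1) for transcripts with a mean of at least 10, and the threshold was an adjusted p (Benjamini-Hochberg) under 0.05 together with a change of 1.5-fold or more. Every adjusted p below is from that test over all transcripts tested unless another tool is named. *Parp8*, whose own activity is little studied, was below that mean and was not tested. It had 0 to 24 reads per library and normalized counts of 0.00 to 27.5, so a difference was not detectable at this depth. The other 8 members were tested in each comparison. With 3 libraries a group, the smallest two-sided p of an exact permutation test is 0.10, and the comparisons of the Type 1 experiment share their ACs libraries.

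**Figure D1:**
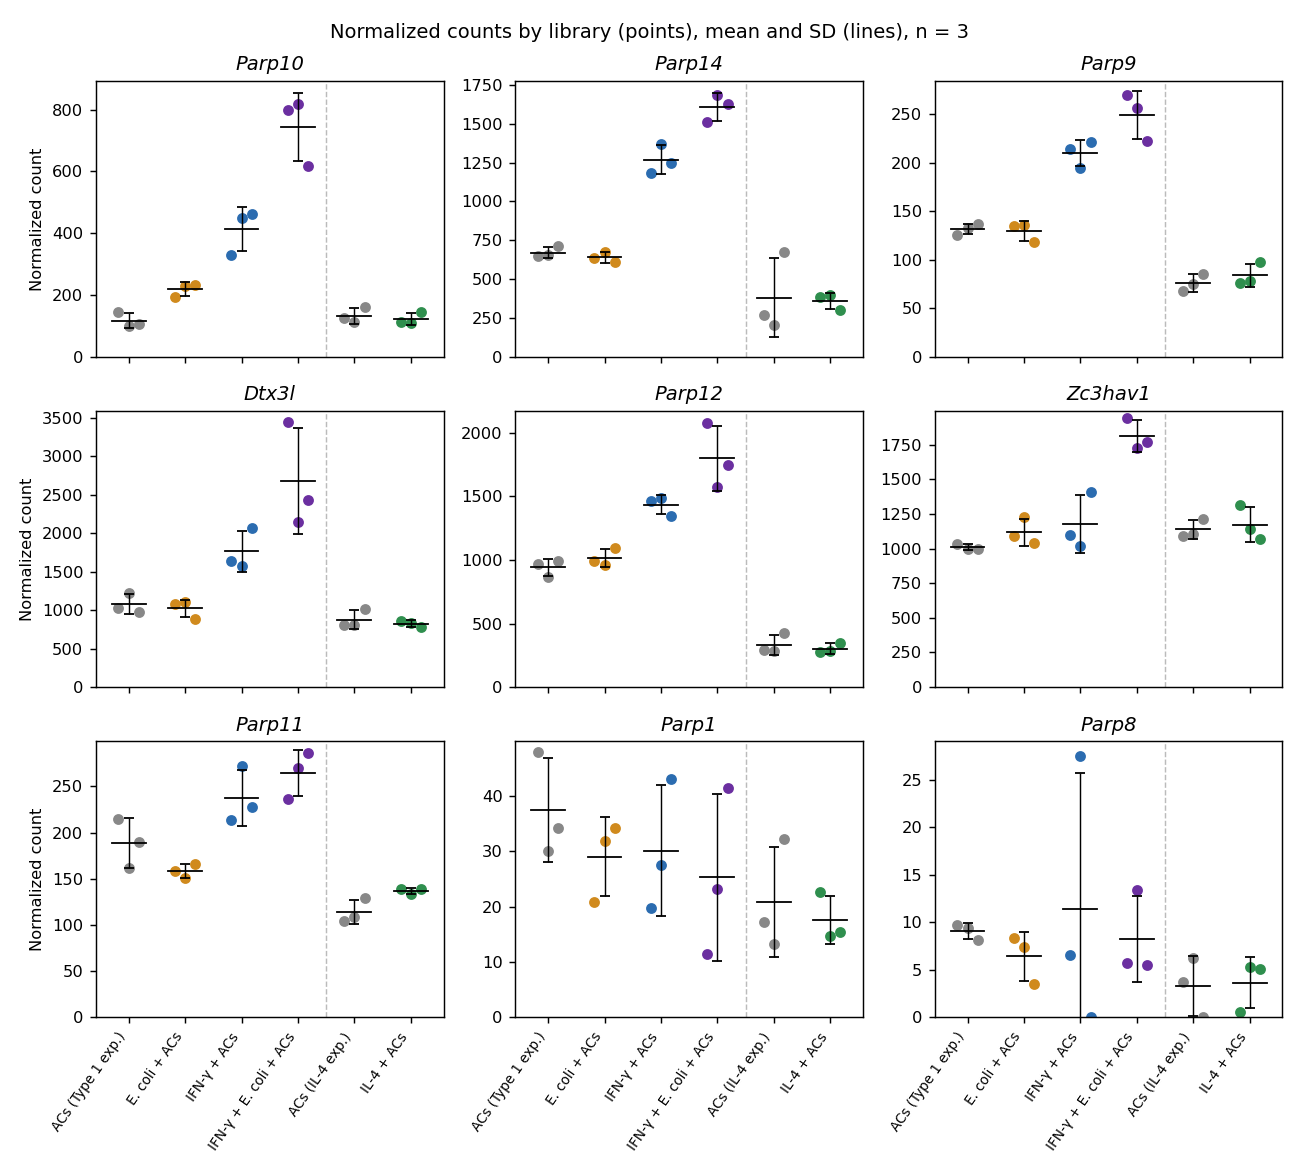
Normalized counts (y axis, linear from 0, own scale per gene) of the 9 members in each of the 18 libraries (points), with the mean and SD of the 3 libraries of each group; the dashed line separates the 2 experiments. *Parp10* climbs from 100.4 to 145 with ACs to 618 to 817 with IFN-γ + *E. coli* + ACs, and all members except *Parp1*, *Parp8* and *Zc3hav1* have a higher mean in IFN-γ + ACs than in ACs by more than either SD.

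With IFN-γ, 5 of the 8 tested members rose, namely *Parp10*, *Parp14*, *Dtx3l*, *Parp9* and *Parp12*, by 1.52-fold to 3.52-fold. Over all 10166 transcripts tested, 11.4% rose and 9.96% fell. The same 5 lay above ACs without overlap, as 22.6% of transcripts did, and 0 lay below, as 20.3% did. None of the members fell in limma, where 0 had an unadjusted p under 0.05 in that direction, and 0 fell in edgeR or DESeq2. The median log2 change of the 8 was 0.64.

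*Parp10*, a mono-ADP-ribosyltransferase first described as a partner of MYC, had the largest change of the members. Its normalized counts were 145, 100.4 and 106 with ACs and 331, 449 and 462 with IFN-γ + ACs. All 3 IFN-γ libraries were above all 3 ACs libraries. The log2 change was 1.82 (SE 0.17, adjusted p = 1.91e-07), and 2.24% of all transcripts tested had a larger one. The annotated 3' end of *Parp10* shares 205 exonic bases with *Plec*, the gene of the cytoskeletal linker plectin, on the same strand. The study's methods give HTSeq in union mode, which counts a read on bases shared by genes for neither. *Plec* had normalized counts of 181, 198 and 188 with ACs and lower ones, 102, 107 and 115, with IFN-γ + ACs. With IFN-γ + *E. coli* + ACs it had 194, 170 and 67.6, which overlapped ACs. How reads of the shared bases were treated in this table was not tested.

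*Parp14*, the STAT6 co-activator, had normalized counts of 649, 652 and 713 with ACs and 1186, 1369.7 and 1249.7 with IFN-γ + ACs. The groups did not overlap, and the 3 ACs libraries lay close together. The log2 change was 0.92 (SE 0.11, adjusted p = 2.63e-06).

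The 2 genes of the PARP9-DTX3L complex rose by a like factor. *Dtx3l* stood at 1033, 1222 and 974 with ACs and at 1642, 1578 and 2069 with IFN-γ + ACs, a log2 change of 0.71 (SE 0.16, adjusted p = 0.00225). *Parp9* stood at 126, 132 and 137 with ACs and at 214, 195 and 222 with IFN-γ + ACs, a log2 change of 0.67 (SE 0.15, adjusted p = 0.00224). Neither gene's groups overlapped. The exonic overlap is at the 5' ends, away from the 3' ends that CEL-Seq2 reads, and whether counting used strand is not given in the sources used here.

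*Parp12*, a zinc-finger mono-ADP-ribosyltransferase with antiviral activity, was nearest the threshold. It had 969, 867 and 993 with ACs and 1465, 1488 and 1346 with IFN-γ + ACs. The groups did not overlap, but the log2 change of 0.60 (SE 0.12, adjusted p = 6.63e-04) was only just over 1.5-fold. It was under 1.5-fold in edgeR (0.58, adjusted p = 9.81e-04), without ACs replicate 2 (0.55) and without IFN-γ + ACs replicate 2 (0.58).

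*Zc3hav1*, *Parp11* and *Parp1* were not past the threshold with IFN-γ. *Zc3hav1*, the antiviral zinc-finger protein, had 1034, 999 and 997 with ACs and 1100.1, 1021 and 1412 with IFN-γ + ACs (log2 change 0.21, 95% interval -0.05 to 0.46, adjusted p = 0.228). *Parp11*, a mono-ADP-ribosyltransferase of the nuclear envelope, had 215, 161 and 190.0 with ACs and 214, 272 and 228 with IFN-γ + ACs (log2 change 0.33, adjusted p = 0.122). For both, the libraries of the 2 groups overlapped. *Parp1*, the DNA-repair enzyme, had means of 37.4 ± 9.39 with ACs and 30.1 ± 11.9 with IFN-γ + ACs (SD, n = 3), a log2 change of -0.35 with a wide 95% interval of -1.20 to 0.51.

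Scaling bore on these calls. When the libraries were rescaled to a common upper quartile, the median log2 change of all transcripts moved to -0.26 with IFN-γ and -0.35 with IFN-γ + *E. coli*, and with IFN-γ only *Parp10* and *Parp14* stayed past the threshold. *Parp12*, *Parp9* and *Dtx3l* then changed by 0.34, 0.40 and 0.44. Rescaling moves all transcripts of a library nearly alike, so it cannot show whether a member stands out from that median. All 5 were above 0 under both scalings.

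With *E. coli*, 1 of the 8 members, *Parp10*, rose, where 5.05% of all transcripts rose and 5.25% fell. It and *Zc3hav1* lay above ACs without overlap, as 19.9% of transcripts did, and 0 lay below (18.4%). Its counts of 195, 231 and 233 were all above the 3 ACs libraries, and its log2 change was 0.92 (SE 0.17, adjusted p = 0.00120). The other 7 had log2 changes of -0.36 to 0.14. *Parp14*, at 636, 678 and 609.6, and *Parp12*, at 990.4, 958 and 1091, overlapped their ACs libraries. The median of the 8 members was -0.05, near that of all transcripts at -0.00399.

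**Figure D2:**
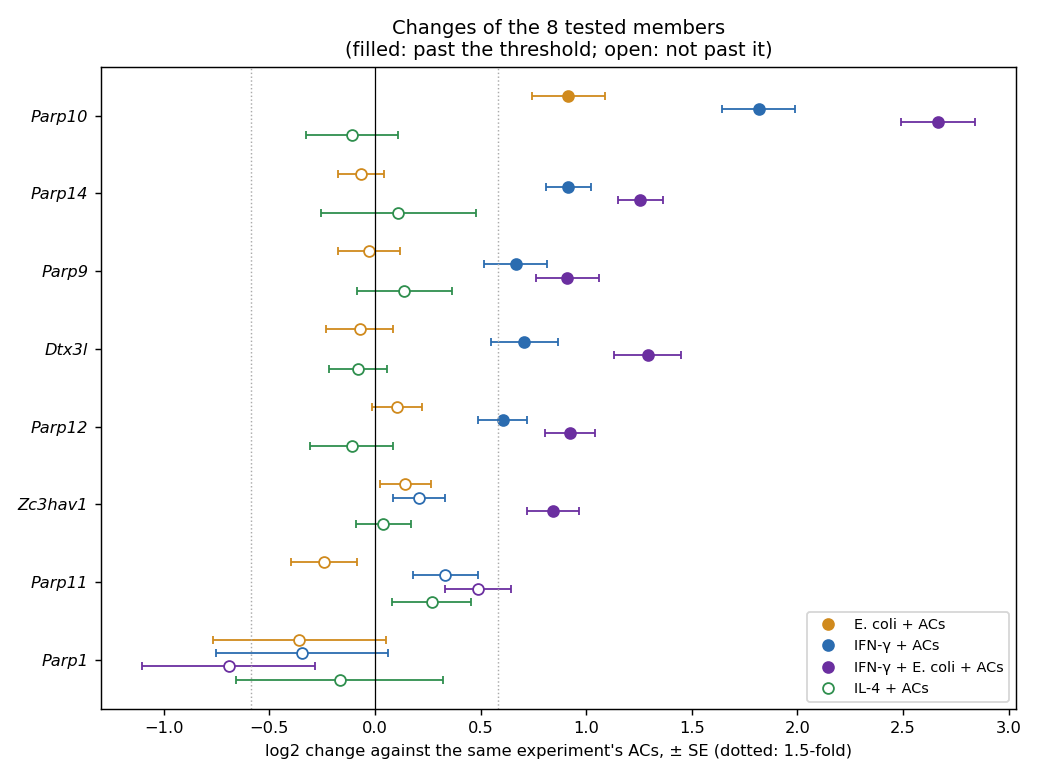
Log2 change (x axis, ± SE from limma) of the 8 tested members in each stimulus against the ACs of its own experiment, with dotted lines at 1.5-fold and filled points past the threshold. *Parp10* has 3 filled points at 0.92, 1.82 and 2.67, and none of the points for IL-4 + ACs is filled.

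With IFN-γ + *E. coli* against ACs, 6 of the 8 members rose, against 14.7% of all transcripts, and 7 lay above ACs without overlap, against 23.9%. Of all transcripts 17.2% fell and 24.8% lay below without overlap, and of the members 0. *Parp10* reached 798, 817 and 618, a log2 change of 2.67 (SE 0.17, adjusted p = 6.13e-10), and 1.11% of transcripts had a larger one. *Dtx3l* reached 3448, 2149.9 and 2431, with the largest spread of the members that rose, a log2 change of 1.29 (SE 0.16). *Parp14* rose 2.39-fold, *Parp12* 1.90-fold, *Parp9* 1.88-fold and *Zc3hav1* 1.79-fold, with adjusted p from 2.68e-08 to 7.57e-05. *Parp11* had 237, 270.0 and 286, all above ACs, and an adjusted p of 0.0179, but its log2 change of 0.49 was under 1.5-fold. Without ACs replicate 1 it was past the threshold (0.59). With the common upper quartile *Zc3hav1* was under 1.5-fold (0.54).

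0 members fell with IFN-γ + *E. coli* in limma, edgeR and DESeq2, and 0 had an unadjusted p under 0.05 in that direction. *Parp1* had 11.4, 23.2 and 41.4 there, from 8, 19 and 30 reads, and overlapped its ACs libraries (log2 change -0.69, adjusted p = 0.193). Without IFN-γ + *E. coli* + ACs replicate 3, the highest of the 3, it was past the threshold at -1.12 (adjusted p = 0.0394), so its level rests on few reads and 1 library. The macrophage marker sum was below ACs in this group and above ACs with IFN-γ alone, and its part in either result was not tested.

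The addition of *E. coli* to IFN-γ asks whether bacteria moved the members further. Against IFN-γ + ACs, 2 of 8 rose, *Parp10* by 0.85 (SE 0.17, adjusted p = 0.00176) and *Zc3hav1* by 0.64 (SE 0.12, adjusted p = 0.00108) on the log2 scale, where 5.96% of all transcripts rose. 0 members fell, as 8.61% of transcripts did. *Zc3hav1* stood at 1943, 1727 and 1773 with both, and all other Type 1 libraries were at 1412 or below. Above IFN-γ + ACs without overlap lay 6 members, against 14.2% of transcripts, and below lay 0, against 15.3%. *Dtx3l*, with 0.58 (SE 0.16, adjusted p = 0.0130), was just under 1.5-fold, and edgeR and DESeq2 put it past the threshold at 0.63 in each. *Parp14* had 0.34 (adjusted p = 0.0311), also under 1.5-fold. Without IFN-γ + ACs replicate 2, *Zc3hav1* was under 1.5-fold (0.54, adjusted p = 0.0104) and 1 member was left.

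Whether the effect of *E. coli* differed with IFN-γ present was tested as an interaction, which no member passed (limma 0, edgeR 0, DESeq2 1), where 3.16% of transcripts were higher and 4.28% lower than additive on the log2 scale. At an unadjusted p under 0.05, 3 members were above additive, *Dtx3l* (0.66, SE 0.22, adjusted p = 0.0797), *Zc3hav1* (0.49, SE 0.17, adjusted p = 0.0894) and *Parp14* (0.41, SE 0.15, adjusted p = 0.111). The 1 in DESeq2 was *Dtx3l* (0.71, adjusted p = 0.0326). *Dtx3l* was also past the threshold without IFN-γ + ACs replicate 3 (0.78, adjusted p = 0.0375) or without IFN-γ + *E. coli* + ACs replicate 2 (0.80, adjusted p = 0.0235), and leaving out any 1 of the 12 libraries gave an adjusted p of 0.0235 to 0.195 and a value of 0.46 to 0.80, the lowest without IFN-γ + *E. coli* + ACs replicate 1. *Zc3hav1* too was past the threshold without IFN-γ + ACs replicate 3 (0.63, adjusted p = 0.0172). For *Parp10* the interaction was -0.07 (95% interval -0.58 to 0.45), as *E. coli* gave 0.92 without IFN-γ and 0.85 with it.

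**Figure D3:**
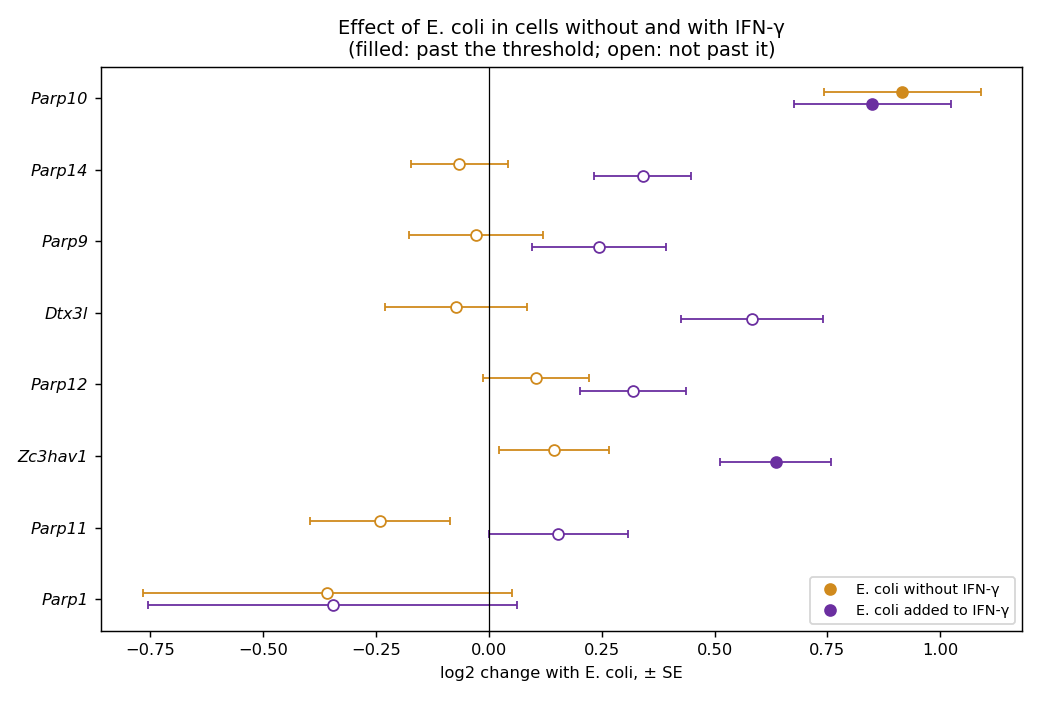
Log2 change with *E. coli* (x axis, ± SE from limma) of the 8 tested members without IFN-γ and added to IFN-γ, filled where past the threshold. The 2 points of *Parp10* lie together at 0.92 and 0.85, while those of *Dtx3l* lie at -0.07 and 0.58 and those of *Zc3hav1* at 0.14 and 0.64.

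Adding IFN-γ to *E. coli* raised 7 of the 8 tested members, all except *Parp1*, where 9.79% of all transcripts rose and 9.57% fell. The log2 changes were 1.75 for *Parp10*, 1.36 for *Dtx3l*, 1.32 for *Parp14*, 0.94 for *Parp9*, 0.82 for *Parp12*, 0.73 for *Parp11* and 0.70 for *Zc3hav1*, and these 7 lay above *E. coli* + ACs without overlap, as 19.9% of transcripts did, with 0 members below (19.4%). With the common upper quartile 4 of the 7 were past the threshold. In IFN-γ + ACs against *E. coli* + ACs, 4 of 8 were higher, *Parp14* by 0.98, *Parp10* by 0.90, *Dtx3l* by 0.78 and *Parp9* by 0.69 on the log2 scale, where 9.84% of all transcripts were higher and 6.72% lower. Without overlap 6 lay above, as 19.4% of transcripts did, and 0 below, as 17.4% did. With the common upper quartile, 2 of the 4 called higher stayed past the threshold. Going by group means, *Parp10* thus ran from ACs through *E. coli* + ACs and IFN-γ + ACs to IFN-γ + *E. coli* + ACs, and each step was past the threshold. For *Parp14*, *Dtx3l*, *Parp9* and *Parp12*, the libraries of ACs and *E. coli* + ACs overlapped.

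With IL-4, 0 of the 8 members changed, where 0.74% of all transcripts rose and 0.347% fell. In limma 0 had an unadjusted p under 0.05, and edgeR and DESeq2 called 0. The libraries of *Parp10* overlapped, at 125, 111 and 161 with ACs and 112, 111 and 144 with IL-4 + ACs. *Dtx3l* (806, 812 and 1013 against 865, 837 and 776) and *Zc3hav1* (1092, 1107 and 1217 against 1312, 1138 and 1069) overlapped as well, with log2 changes of -0.08 (95% interval -0.39 to 0.23) and 0.04 (-0.25 to 0.33). *Parp11* lay above ACs without overlap, at 139, 133 and 139 against 105, 109 and 129, as 8.45% of transcripts did (8.84% lay below, and 0 members), with a log2 change of 0.27 (adjusted p = 0.693).

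*Parp14* in the IL-4 experiment depended on the shallow replicate 3 libraries. It had 268, 202 and 676 with ACs and 385, 395 and 303 with IL-4 + ACs, so that ACs replicate 3 was above all others. The log2 change was 0.11 with a wide 95% interval of -0.71 to 0.93. Without ACs replicate 3 it was 0.62 (adjusted p = 0.206), not past the threshold. Without the replicate 3 libraries of both groups, which left only replicates 1 and 2 of each, it was 0.74 (SE 0.14, adjusted p = 0.00927), past the threshold. Of all transcripts 3.25% then rose and 2.93% fell. The 676 stood for 126 reads. The summed macrophage markers were 27277 to 39798 with ACs and 21736 to 36452 with IL-4 + ACs, and their part was not tested.

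The IL-4 and IFN-γ effects were compared in 1 fit, each against its own ACs. The IL-4 effect was lower for 3 members, *Parp10* by 1.93 (SE 0.27, adjusted p = 2.79e-05), *Dtx3l* by 0.79 (SE 0.22, adjusted p = 0.0193) and *Parp12* by 0.71 (SE 0.21, adjusted p = 0.0243) on the log2 scale, where 8.09% of all transcripts were lower and 6.17% higher. *Parp10* stayed past the threshold without any 1 library. *Dtx3l* lost the call without ACs replicate 3 of the Type 1 experiment (adjusted p = 0.0587) or IFN-γ + ACs replicate 3 (0.0580). It also lost it without both shallow replicate 3 libraries of the IL-4 experiment (-0.64, adjusted p = 0.0714). *Parp12* lost it without Type 1 ACs replicate 2 (0.0662), IFN-γ + ACs replicate 2 (0.0550), IL-4 + ACs replicate 1 (0.0650) or 2 (0.0571), or ACs replicate 3 of the IL-4 experiment (-0.52, 0.0577). Neither was past it with all transcripts tested or with the common upper quartile. *Parp14* had -0.81 (adjusted p = 0.157; past the threshold at -1.16 without IL-4-experiment ACs replicate 2) and *Parp9* -0.53 (adjusted p = 0.139). For *Parp14* the difference was -0.17 without both shallow libraries.

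ACs alone gave unlike levels in the 2 experiments, which were not tested since experiment and culture cannot be told apart. *Parp12* had a mean of 943 beside the Type 1 stimuli and 331 beside IL-4, *Parp9* 132 and 76.1, and *Parp11* 189 and 114. These 3 lay higher beside the Type 1 stimuli without overlap, as 19.6% of the 10592 transcripts with a mean of at least 10 in these 6 libraries did. So did *Parp8*, below that mean, at 9.10 and 3.33, but from only 12, 10 and 10 reads and 5, 8 and 0 reads. The 0 was in the shallow ACs replicate 3. *Zc3hav1* lay lower without overlap, at 1009.9 and 1139, as 22.6% of transcripts did, and *Parp10* overlapped, at 117 and 132.

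Among the 8 other PARP genes listed, 7 were tested and 2 rose with IFN-γ. Over all transcripts tested, 11.4% rose with IFN-γ, 5.05% with *E. coli* and 14.7% with both. *Tiparp*, a mono-ADP-ribosyltransferase induced by the aryl hydrocarbon receptor, went from 455 ± 16.4 with ACs to 989 ± 151 after *E. coli*, 1024 ± 93.5 after IFN-γ and 1309 ± 225 after both (SD, n = 3), past the threshold in each. *Parp4*, the PARP of vault particles, rose by 0.60 with IFN-γ (adjusted p = 0.0210) and by 1.29 with IFN-γ + *E. coli* on the log2 scale. The tankyrases *Tnks* and *Tnks2* and *Parp2*, *Parp3* and *Parp6* were not past the threshold with any stimulus.

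Of 14 genes that make or use NAD, the substrate of PARP enzymes, 11 were tested, and 3 rose and 2 fell with IFN-γ. The shares of all transcripts were 11.4% and 9.96%. *Nampt*, the rate-limiting enzyme of NAD salvage, went from 756 ± 71.1 with ACs to 4162 ± 324 after IFN-γ and 6980 ± 604 after both stimuli (SD, n = 3). *Cd38* and *Bst1*, ectoenzymes that consume NAD, rose with IFN-γ by 1.79 and 1.14 on the log2 scale. *Nmnat1*, which makes NAD in the nucleus, and *Nadsyn1*, NAD synthetase, fell by 1.89 and 1.12 on the log2 scale from means of 26.7 and 27.8. Of these 2, edgeR and DESeq2 each called 1. With IFN-γ + *E. coli* 5 rose and 3 fell, where 14.7% of all transcripts rose and 17.2% fell. With *E. coli* 1 rose, *Nadk*, and 1 fell, *Sirt1*, where 5.05% of all transcripts rose and 5.25% fell.

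Among 9 listed partners of ZC3HAV1 in RNA decay, 8 were tested. *Trim25*, its ubiquitin-ligase cofactor, rose with IFN-γ from 1009 ± 167 to 1602 ± 97.4 (SD, n = 3), and the exosome subunit *Exosc3* fell by 0.62 on the log2 scale. With IFN-γ + *E. coli*, *Trim25*, *N4bp1* and *Dhx15* rose and *Exosc5* fell. Over all transcripts, 14.7% rose and 17.2% fell with both stimuli, and 11.4% rose and 9.96% fell with IFN-γ. Of 13 genes of interferon receptors and signalling, 4 rose with IFN-γ, *Irf1* by 2.49, *Socs1* by 1.48, *Ifnar2* by 0.97 and *Stat2* by 0.75 on the log2 scale, and the receptor *Ifngr1* fell by 0.60 (adjusted p = 0.00821). With IFN-γ + *E. coli* 5 rose. With *E. coli* 1 fell, *Jak2*, where 5.25% of all transcripts fell.

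Of 10 listed enzymes that remove or break down ADP-ribose, 9 were in the table and 6 were tested in the Type 1 experiment, and of 9 repair partners of PARP1 all were tested. Of the removing enzymes limma called 0 with *E. coli* or IFN-γ alone, while 2 and 1 had an unadjusted p under 0.05, and edgeR and DESeq2 each called 1 lower with *E. coli*. *Adprh* had log2 changes of 0.53 with *E. coli* (adjusted p = 0.00349) and 0.46 with both stimuli (adjusted p = 0.00347), under 1.5-fold in each. With both stimuli *Enpp1* alone fell (log2 change -2.25, adjusted p = 0.00160), where 17.2% of all transcripts fell. Of the repair partners limma, edgeR and DESeq2 called 0 with each of the 3 Type 1 stimuli, with 2, 0 and 2 at an unadjusted p under 0.05 for *E. coli*, IFN-γ and both. With IL-4 limma and edgeR called 0 of the 54 genes tested in these 6 lists (*Parp2* is in 2 of them), where 7 were higher and 4 lower at an unadjusted p under 0.05, and DESeq2 called 1 higher and 1 lower. The median log2 changes of the lists with IFN-γ were 0.29 for the other PARP genes, -0.11 for the NAD genes, 0.04 for the ZC3HAV1 partners, 0.02 for interferon signalling, 0.03 for the removing enzymes and -0.09 for the repair partners, beside -2.07e-06 for all transcripts.

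**Figure D4:**
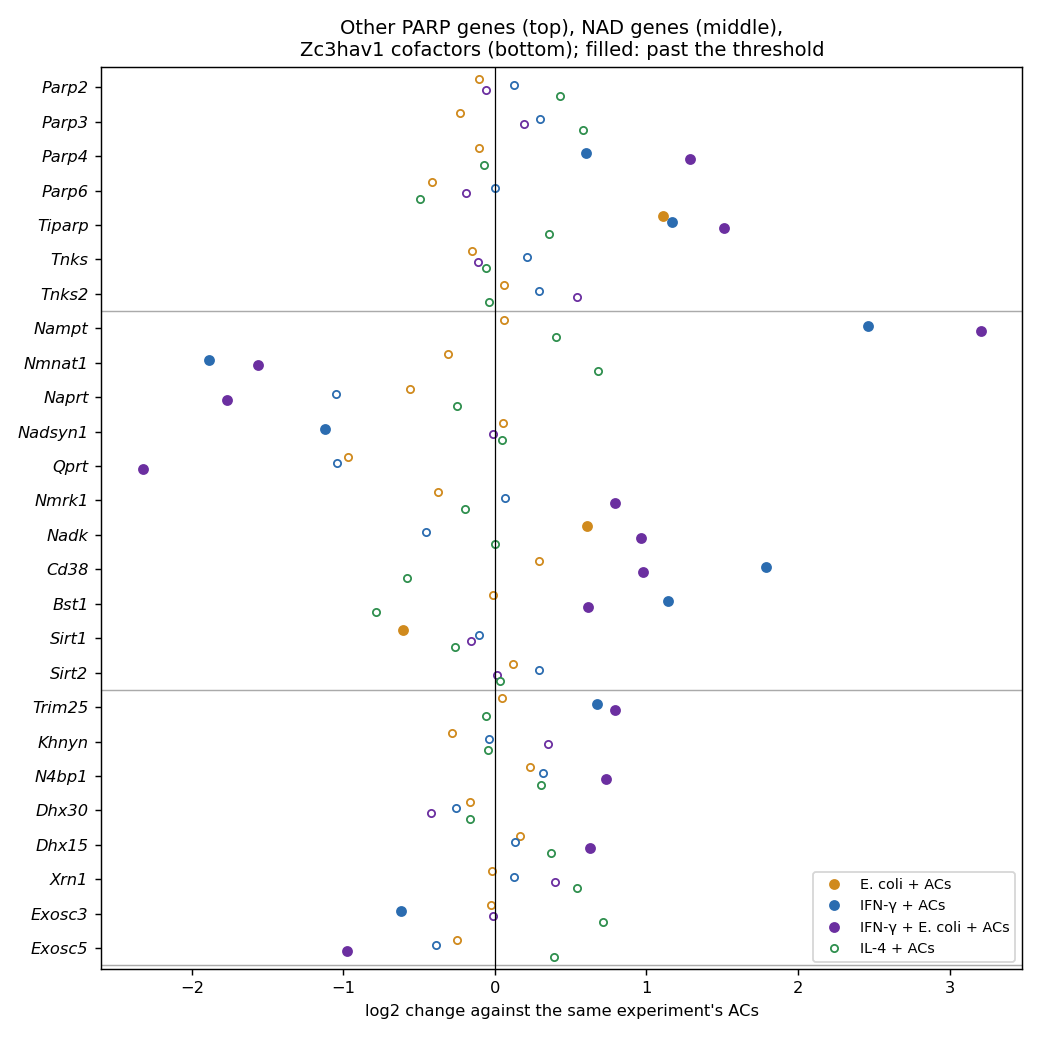
Log2 change (x axis) against the same experiment's ACs for the tested genes of 3 lists, from top to bottom other PARP genes, NAD genes and ZC3HAV1 partners, filled where past the threshold. *Nampt* lies at 2.46 with IFN-γ and 3.21 with IFN-γ + *E. coli*, *Tiparp* has 3 filled points, and no point for IL-4 + ACs is filled.

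Likeness was measured as the root mean square difference of the 4 log2 changes against ACs, over the 18 libraries and 6896 transcripts with a mean of at least 50. It describes a pattern only and takes no account of the SEs of the changes. Nearest to *Dtx3l* was *Parp4* at 0.05, followed by *Tnpo1* and *Atp11b*, and *Parp14* ranked 12. Nearest to *Parp14* were *Neat1*, *Nub1* and *Cers6*, with *Dtx3l* at rank 6. *Parp14* entered with an IL-4 log2 change of 0.11 (SE 0.37), which was 0.74 without both shallow replicate 3 libraries. Nearest to *Parp9* were *Caprin1*, *Exoc5* and *Ahcyl2*, with *Parp12* at rank 28 and its head-to-head neighbour *Dtx3l* at rank 178. Nearest to *Parp12* were *Phc2*, *Oasl2* and *Max*, to *Parp10* *Abr*, *Maff* and *Slc16a3*, and to *Zc3hav1* *Cpsf7*, *Cul1* and *Fbxo38*. For *Parp11* they were *5330406M23Rik*, *Rrm2b* and *Atf2*, and for *Parp1* *Inpp5k*, *Ndufaf8* and *Tbc1d9b*. The member nearest to *Parp10* was *Parp14*, at a difference of 0.98 and rank 374.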

How the data were processed

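The authors deposited a normalized signal for each gene, read counts scaled by a DESeq2 size factor per library. Per the labels, reads were mapped to GRCm38 with TopHat2 2.1.0 and counted with HTSeq 0.6.1, and the normalization tool is listed as DESeq2 1.26.0. The study's methods also describe STAR, and which pipeline made this table is not given in the sources used here. Values were whole multiples of 1 step per library (within 0.0051) for 100% of values, so reads were recovered. Of 54446 identifiers 54409 had a symbol. Reads per library, 779421 to 7782072, limit the precision of low genes. The 95% intervals are from limma and rest on the spread between libraries.

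Limma 3.58.1 in R 4.3.3 was run on log2(value + 1) with a mean of at least 10, on the 12 Type 1 libraries, on the 6 of the IL-4 experiment, or on all 18 for the IL-4 against IFN-γ effect. Members, lists and tests were chosen with earlier results of these data known. Named were all members, up to 4 genes per list past the threshold with IFN-γ or IL-4 by size of change, and the 3 transcripts most alike; *Plec*, *Nadsyn1*, *Ifngr1*, *Prg3* and list genes named for *E. coli*, for IFN-γ + *E. coli* or as not past the threshold were chosen after their values were seen. The scripts were tested on simulated data. Between replicates, the chi-square of reads per degree of freedom was 4.19 to 14.69, more than read sampling alone gives. That spread does not show that the libraries are independent, and each was counted as its own sample. Whether unique molecular identifiers were counted is not given either. Alternatives were edgeR 4.0.16 and DESeq2 1.42.0 on recovered reads, a pseudocount of 5, no filter, a mean of at least 50, a replicate block, 2 upper-quartile scalings, no fold threshold, only the 2 groups compared (IL-4: all 18 libraries) and leaving out libraries. Same-numbered libraries of IFN-γ + ACs and IFN-γ + *E. coli* + ACs deviated together (r = 0.17 to 0.25 in 3 pairs, against -0.16 to 0.02 in the 6 others), and the labels do not state a pairing. Promoter windows came from RefSeq, and protein sequences are not used here. Python 3.11.15 and matplotlib 3.10.9 drew the plots.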

Additional observations from a re-analysis of the deposited data

How the results depend on the processing

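Of 314 counts of members under 31 alternatives, 299 stayed within 1.5 times the count reported, and of 1247 log2 changes of single members 1197 kept their side of the threshold, 28 lost the call, 22 gained one and 0 changed sign while called. With the common upper quartile, members past the threshold were 2 with IFN-γ, 4 when IFN-γ was added to *E. coli*, 2 for IFN-γ against *E. coli*, 1 above additive in the interaction and 1 lower in the IL-4 against the IFN-γ effect. An upper quartile over the tested transcripts, chosen after seeing the data because the number of transcripts above 0 follows depth, gave 3 with IFN-γ and 1 when *E. coli* was added to IFN-γ. Without a fold threshold the latter was 4. DESeq2 gave 1 above additive, and no filter gave 1 lower in the IL-4 against the IFN-γ effect, with more genes tested. Leaving out libraries gave 1 to 3 members higher when *E. coli* was added to IFN-γ, 0 to 2 above additive, 0 to 1 lower with IFN-γ + *E. coli* and 0 to 1 higher with IL-4, the 1 being *Parp14* without both shallow replicate 3 libraries. The cause of these shifts was not tested.

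Deviations of same-numbered libraries correlated over 0.1 in 4 of 18 pairs of the Type 1 experiment and in 0 of the 3 pairs of the IL-4 experiment. Of differently numbered pairs, 5 of 36 and 1 of 6 did. Of the 4 pairs, 3 were between IFN-γ + ACs and IFN-γ + *E. coli* + ACs. All same-numbered libraries thus deviated together in that 1 comparison only, and whether they are paired is not known. There, a replicate block gave 2 members higher, on all 12 libraries or on these 6 (chosen after seeing the data), as without it. In the comparisons with ACs the labels give only a shared number, and with a replicate block the counts were 1 with *E. coli*, 5 with IFN-γ, 6 with both and 0 with IL-4, as without it. Depth limits *Parp8* and *Parp1* throughout, and the shallow libraries limit all members with IL-4.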
